A study of Mus musculus with 14 samples.

Results

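The genes described here are 41 genes of DNA replication and of the repair of replication forks, chosen by name from the 46959 gene entries of the count table. All 41 were found, and all 41 passed the filter on low counts that left 17450 genes for testing. By role they comprised 11 origin-licensing genes, 6 genes of helicase activation, 8 polymerase and primase subunits, 6 genes of the sliding clamp and its loader, 2 Okazaki fragment genes, 3 subunits of replication protein A, 4 genes of fork repair and checkpoint, and Uhrf1. RNA sequencing covered 14 libraries of Eµ-Myc lymphoma, the malignant B cells of mice that carry a Myc transgene driven by the enhancer of the immunoglobulin heavy chain. There were 12 untreated cultured lines, each from a different E-mu-MycTg/+ mouse and each represented by 1 library (mice 115, 136, 309, 504, 505, 506, 517, 524, 549, 649, 688 and 801). They were kept for 24 h in DMEM-GlutaMAX with serum and 0.37 mM of added L-asparagine, and the label for genotype reads WT in every sample.

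The other 2 libraries were lymphomas taken from a lymph node of wild-type C57BL/6 hosts engrafted with cells of line 506. From day 7 after injection to the disease endpoint, the first host received vehicle (NaCl 0.9%) and the second the asparagine-degrading enzyme L-asparaginase (ASNase). Both lymphomas carry the same transgene and the same line of origin, so they are not independent of each other, and a lymphoma also contains cells of its wild-type host. The labels give no age or sex and no sequencing batch. Library totals spanned 24597230 to 32614751 counts over the lines, with 27715832 counts for the vehicle and 25690935 for the ASNase lymphoma. Values are in CPM, counts for every 1e6 counts of the library, after scaling of the libraries by edgeR's trimmed mean of M-values (TMM), and ± is the SD over the 12 lines. The B cell label was checked on Pax5, a transcription factor that maintains B cell identity. It ran from 445 to 692 CPM in the lines, with 456 CPM in the vehicle and 512 CPM in the ASNase lymphoma. Not all of the 16 B cell genes listed were as steady. Over the lines Ebf1 ran from 19.3 to 246 CPM, Blk from 0.0381 to 136 CPM and Bcl11a from 0.0950 to 123 CPM.

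Replication starts when the origin recognition complex (ORC), Cdc6 and Cdt1 load the ring of Mcm2 to Mcm7 onto DNA, and geminin (Gmnn) binds Cdt1 to prevent loading a second time. Cdc45 and the GINS complex then turn the ring into an active helicase, primase and polymerase alpha lay down primers, and polymerases delta and epsilon copy the strands while held by the clamp Pcna, which replication factor C (RFC) opens and loads. Transcription of many of these genes rises as cells enter S phase under E2F factors, and Myc-driven B cell lymphoma is known for rapid division.

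The promoters of the members whose sequence bears most on that background are shown first. RefSeq promoter windows of GRCm38.p6, the build of the count table, were matched by symbol for 33 of the 41 members. The letters TTTGGCGC, TTTGCCGC, TTTCGCGC and TTTCCCGC, which are E2F-type, were searched on both strands in the 250 bases before each start. These windows were chosen because they hold a match and no annotated exon base, and the motifs were picked after values and matches had been seen. All are written 5′ to 3′ on the strand of the gene, with the matches in capitals. Mcm5 is at chr8:75109259-75109508 (plus strand), Mcm6 at chr1:128359706-128359955 (minus), Pola1 at chrX:93632156-93632405 (minus), Uhrf1 at chr17:56304063-56304312 (plus) and Brca2 at chr5:150522371-150522620 (plus).
Mcm5: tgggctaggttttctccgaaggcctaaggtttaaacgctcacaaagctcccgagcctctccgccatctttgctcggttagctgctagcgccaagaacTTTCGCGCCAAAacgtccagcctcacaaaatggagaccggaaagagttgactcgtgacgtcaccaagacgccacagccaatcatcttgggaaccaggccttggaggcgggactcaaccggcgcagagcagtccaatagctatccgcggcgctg
Mcm6: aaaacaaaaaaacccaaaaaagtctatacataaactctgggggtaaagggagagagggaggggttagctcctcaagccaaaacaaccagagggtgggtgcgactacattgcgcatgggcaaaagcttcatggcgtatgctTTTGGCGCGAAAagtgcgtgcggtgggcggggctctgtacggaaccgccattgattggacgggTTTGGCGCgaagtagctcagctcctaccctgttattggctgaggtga
Pola1: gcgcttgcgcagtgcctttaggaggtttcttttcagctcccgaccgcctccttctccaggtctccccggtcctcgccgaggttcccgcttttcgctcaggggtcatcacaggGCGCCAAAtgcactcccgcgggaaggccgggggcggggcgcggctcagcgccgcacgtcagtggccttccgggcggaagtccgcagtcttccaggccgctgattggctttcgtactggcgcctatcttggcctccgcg
Uhrf1: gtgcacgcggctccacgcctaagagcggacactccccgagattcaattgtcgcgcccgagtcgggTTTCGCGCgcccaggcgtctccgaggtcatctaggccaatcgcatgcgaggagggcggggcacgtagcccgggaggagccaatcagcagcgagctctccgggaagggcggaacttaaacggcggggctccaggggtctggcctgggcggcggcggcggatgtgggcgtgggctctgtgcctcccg
Brca2: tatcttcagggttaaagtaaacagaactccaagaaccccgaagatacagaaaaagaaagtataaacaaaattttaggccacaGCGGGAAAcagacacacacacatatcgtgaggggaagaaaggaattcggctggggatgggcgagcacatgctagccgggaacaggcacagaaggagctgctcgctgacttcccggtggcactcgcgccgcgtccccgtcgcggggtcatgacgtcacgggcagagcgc

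In Mcm5, the subunit of the helicase ring beside Mcm2, the matches began 153 and 149 bases before the start and overlapped on opposite strands. Mcm6 had 3 matches, at 110, 106 and 47 bases, the first 2 of which overlapped. The single matches lay 138 bases before the start in Pola1, 185 in Uhrf1 and 168 in Brca2. In all, 10 of the 33 matched members (30.3%) had an E2F-type match in a window of theirs, namely Brca2, Cdc6, Gins3, Mcm5, Mcm6, Mcm7, Orc1, Pola1, Rfc3 and Uhrf1, against 2.16% of 27025 genes. Both counts cover the whole window, annotated exon bases included. In Gins3, Mcm7, Orc1 and Rfc3 no match lay in the longest exon-free stretch of any window. The letters CCAAT were found in 22 members (66.7%), against 37.5% of genes. The E-box CACGTG, which Myc can bind, was found in 4 (12.1%) against 6.86%, and TTTGAA, the letters of a cell cycle element, in 5 (15.2%) against 18.3%. A match is a stretch of letters and not a measured binding site.

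In the cultured lines these genes together took 0.605% to 0.860% of all counts. Between genes, levels are given per kilobase of exon, a scale that depends on the exonic length given for each gene. On it Pcna was highest at 203 ± 30.0 CPM per kb (SD, n = 12). Then came Mcm3 at 127 ± 20.3, Mcm6 at 116 ± 20.5, Mcm5 at 113 ± 18.6, Mcm4 at 97.3 ± 13.9 and Mcm7 at 97.0 ± 19.9 CPM per kb. Uhrf1, which reads hemimethylated DNA behind the fork, came next at 94.5 ± 15.2 CPM per kb. Neighbours in this order from Mcm3 to Uhrf1 differed by less than the larger of their SDs, whereas Pcna exceeded Mcm3 by more than either SD. The order of these averages is a description, without a test.

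The 6 helicase subunits form a ring with equal numbers of each, yet their transcripts per kb were not level. The length used is 6956 exonic bases for Mcm2 and 3422 to 4666 for Mcm3 to Mcm7, and the place of Mcm2 depends on it. Without length, its line mean of 436 CPM was above those of Mcm4 (349), Mcm5 (387) and Mcm7 (429). It was below those of Mcm3 (476) and Mcm6 (540). Mcm2 stood at 62.7 ± 13.0 CPM per kb in the lines, 35.0 in the vehicle and 32.4 in the ASNase lymphoma, and was the lowest of the 6 in 13 of the 14 libraries. The exception was line 309, where Mcm4 was lowest. The highest subunit stood 1.42 to 2.96 times above the lowest within a library, with 1.42 in line 309 and 2.96 in line 649. Among the less abundant members, Orc1, the largest ORC subunit, stood at 12.9 ± 1.74 CPM per kb, the checkpoint kinase gene Chek1 at 11.1 ± 2.09, Blm at 10.1 ± 0.68 and Brca2, a gene of homologous recombination, lowest at 3.41 ± 0.51 CPM per kb.

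**Figure D1:**
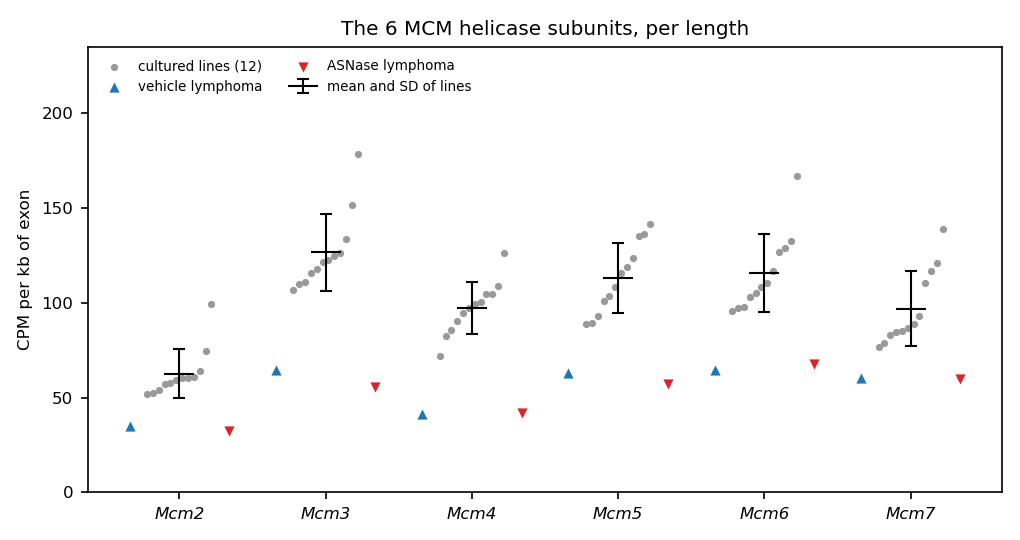
Level of the 6 MCM helicase subunits per kilobase of exon (y axis, CPM per kb) in each cultured line (grey points, with the mean and SD of 12 lines in black), the vehicle lymphoma (blue triangle) and the ASNase lymphoma (red triangle). Mcm2, with the longest exonic length of the 6 (6956 bases), has the lowest line mean, 62.7 CPM per kb. For every subunit both triangles lie below all grey points.

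Most members varied somewhat less from line to line than the median gene expressed at such levels. The SD of log2 CPM over the 12 lines had a median of 0.25 over the members, against 0.47 over all genes tested and 0.30 over the 6384 genes with a mean at or above that of the lowest member. Below that last value lay 32 of the 41 members. Of those 6384 genes, 37.2% had an SD smaller than the member median. The highest line exceeded the lowest by a median of 1.78 times over the members, and by 2 times or more in 9. Steadiest was Blm, the helicase that unwinds recombination intermediates, at 77.4 to 99.6 CPM (median 89.3, SD of log2 CPM 0.097). Next came the GINS subunit Gins4, at 42.5 to 58.9 CPM (median 49.3, SD of log2 CPM 0.15), and Mcm10, which stabilises the helicase at origins, at 107 to 144 CPM (median 131, SD of log2 CPM 0.15).

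The widest spread was that of the GINS subunit Gins2, with an SD of log2 CPM of 0.49 and values from 19.5 CPM in line 524 to 63.2 CPM in line 504 (median 32.6). Of its exonic bases 67.3% lie opposite those of Gse1, and because the strand setting of the counting is not given in the sources used here, its level is uncertain. The polymerase epsilon subunit Pole2 had an SD of log2 CPM of 0.48, with 59.6 CPM in line 309, 38.5 CPM in the next highest line and 16.6 CPM in line 136. Line 309 also stood apart in Mcm2, with 690 CPM against 363 to 519 CPM in the others. Pola2, the accessory subunit of polymerase alpha, was at 285 CPM in line 136 and 260 CPM in line 115, and the other lines lay between 115 and 194 CPM (SD of log2 CPM 0.43). Rfc3, a clamp loader subunit, ran from 32.2 CPM in line 505 to 72.6 CPM in line 517 (median 43.5, SD of log2 CPM 0.38).

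Gmnn, which encodes geminin, was low in a single line. It stood at 32.9 CPM in line 801 and at 72.9 to 102 CPM in the other 11 lines (SD of log2 CPM 0.41). Cdt1, the loading factor that geminin binds, was at 177 CPM in line 801, inside its range of 130 to 191 CPM. The ratio of Cdt1 to Gmnn per length was therefore 3.59 in line 801, against 1.01 to 1.58 in the other lines, 1.37 in the vehicle and 1.54 in the ASNase lymphoma. In line 801 against the other lines Gmnn had a log2 fold change of -1.29 (SE 0.22, edgeR quasi-likelihood test, adjusted p = 0.0965 over 10698 genes), which missed the threshold of 0.05.

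With each line set against the other 11 in turn, edgeR called 0 of 41 members in any of the 12 lines, and 28 of these 492 tests had an unadjusted p under 0.05. Over all genes the share with such a p was 0.383% to 16.5% by line. Each of these tests sets 1 library against 11, so the spread comes from the other lines alone, and the line is taken to vary like them. Over all genes the same tests called 3.23% in line 524, 2.36% in line 504, 0.028% in line 136, 0.0187% in lines 505 and 517, 0.00935% in line 801 and 0% in the others. DESeq2 called 2 members, Gmnn in line 801 (log2 fold change -1.28, adjusted p = 1.64e-06) and Rpa2, a subunit of replication protein A, in line 524 (log2 fold change -0.46, adjusted p = 0.0362). Rpa2 stood at 98.9 CPM in line 524 and at 123 to 150 CPM in the others.

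Line 517 had the highest summed level of the members, 8144 CPM, and exceeded the mean of the other lines in 36 of 41 members, with a median log2 difference of 0.29. It was the highest line for 8 members, among them Cdc6 at 114 CPM, Cdc45 at 120 CPM and Uhrf1 at 532 CPM. Lines 136 and 524 were each the lowest for 10 members, and line 136 was also the highest for 6 and line 524 for 2. Line 649 led in Mcm3 with 670 CPM (next highest 569) and in Mcm6 with 779 CPM (next highest 619). Line 506, from which both lymphomas derive, had a summed level of 6589 CPM, inside the range of 6311 to 8144 CPM over the lines. It was below the mean of the other lines in 32 members, and highest of all lines in Fen1, the nuclease that trims Okazaki fragments, with 271 CPM. The counts of members highest, lowest, above or below in a line were not set against the same counts over all genes. They are therefore not read as particular to the members.

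**Figure D2:**
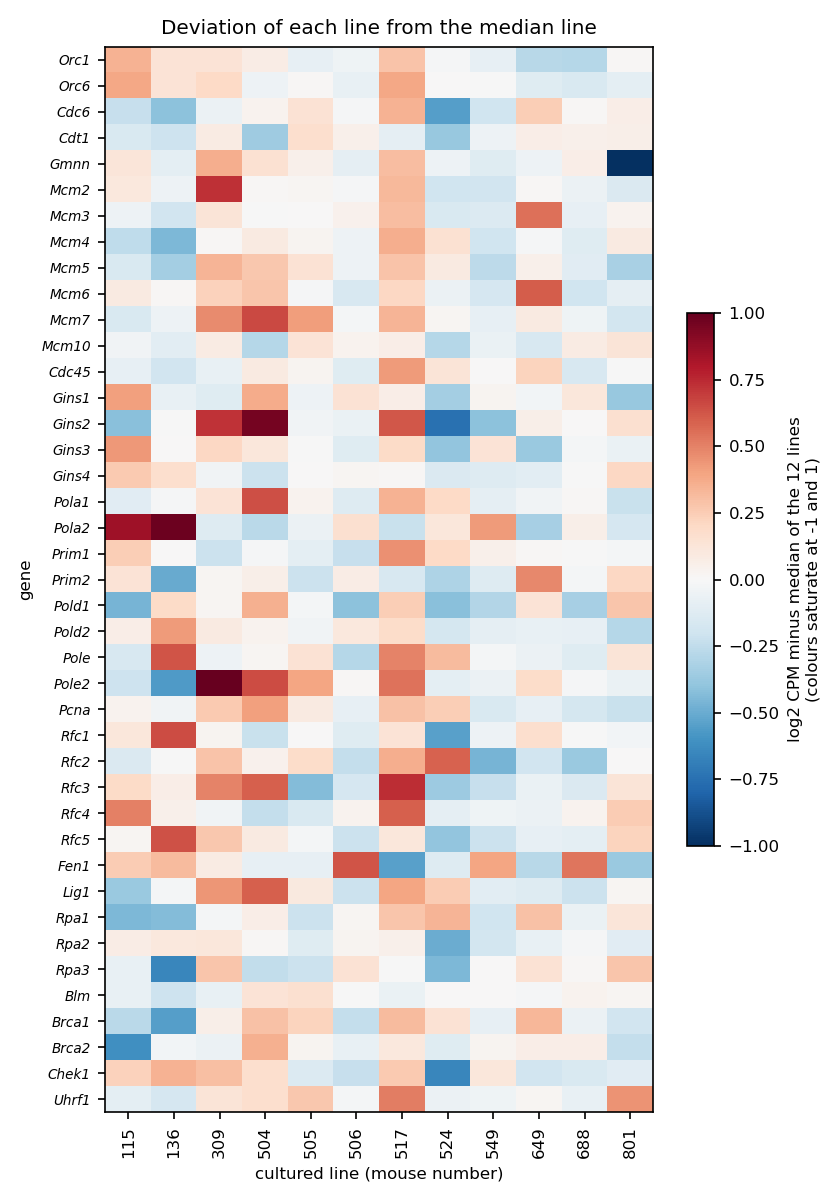
Deviation of each cultured line (columns, by mouse number) from the median of the 12 lines, for each gene (rows), as a difference in log2 CPM from blue (lower) to red (higher), with colours saturating at -1 and 1. The column of line 517 is mostly red, and the darkest blue cell is Gmnn in line 801 (32.9 CPM).

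Set against the cultured lines, both lymphomas had less RNA of most of the 41 members. The summed level was 4266 CPM in the vehicle and 4225 CPM in the ASNase lymphoma, below every line. Of 41 members, 24 (58.5%) were called lower by edgeR's quasi-likelihood test at a Benjamini-Hochberg adjusted p under 0.05 and 0 were called higher, while over the 17450 genes tested 11.1% were called lower and 13.4% higher. The fold change was below 0 on the log2 scale in 40 of 41, with a median of -0.72 against -0.01 over all genes tested. In 29 of 41 members (70.7%) both lymphomas lay below every line, against 12.5% of all genes. No member had both lymphomas above every line, which 19% of all genes did. The 17450 genes tested include genes near 0 in the lines, kept by the filter through a lymphoma. A gene at 0 in any line cannot lie below every line. Shares over genes at a level like that of the members were not computed, so the contrast with all genes may be overstated. In bulk RNA, fewer cells of a type and less RNA per cell cannot be told apart.

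Because all residual spread in this fit comes from the lines, each lymphoma is taken to vary as a line would, and both tumours stand for the same line 506. With the ASNase lymphoma alone 9 members were called and with the vehicle lymphoma alone 11, and 7 were called in all 20 alternatives tried (Orc1, Orc6, Mcm3, Mcm4, Mcm10, Cdc45 and Pcna). The scaling moves all genes together. The median over all genes was 0.22 with scaling by total counts and -0.46 with scaling on B cell genes. The median of the members minus that of all genes, which such a shift leaves nearly unchanged, was -0.71 and -0.72. Members called lower numbered 12 and 34. Of all genes called, the share called higher was 54.8% with TMM, 75.7% with total counts, 34.1% on B cell genes and 43.6% in DESeq2.

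**Figure D3:**
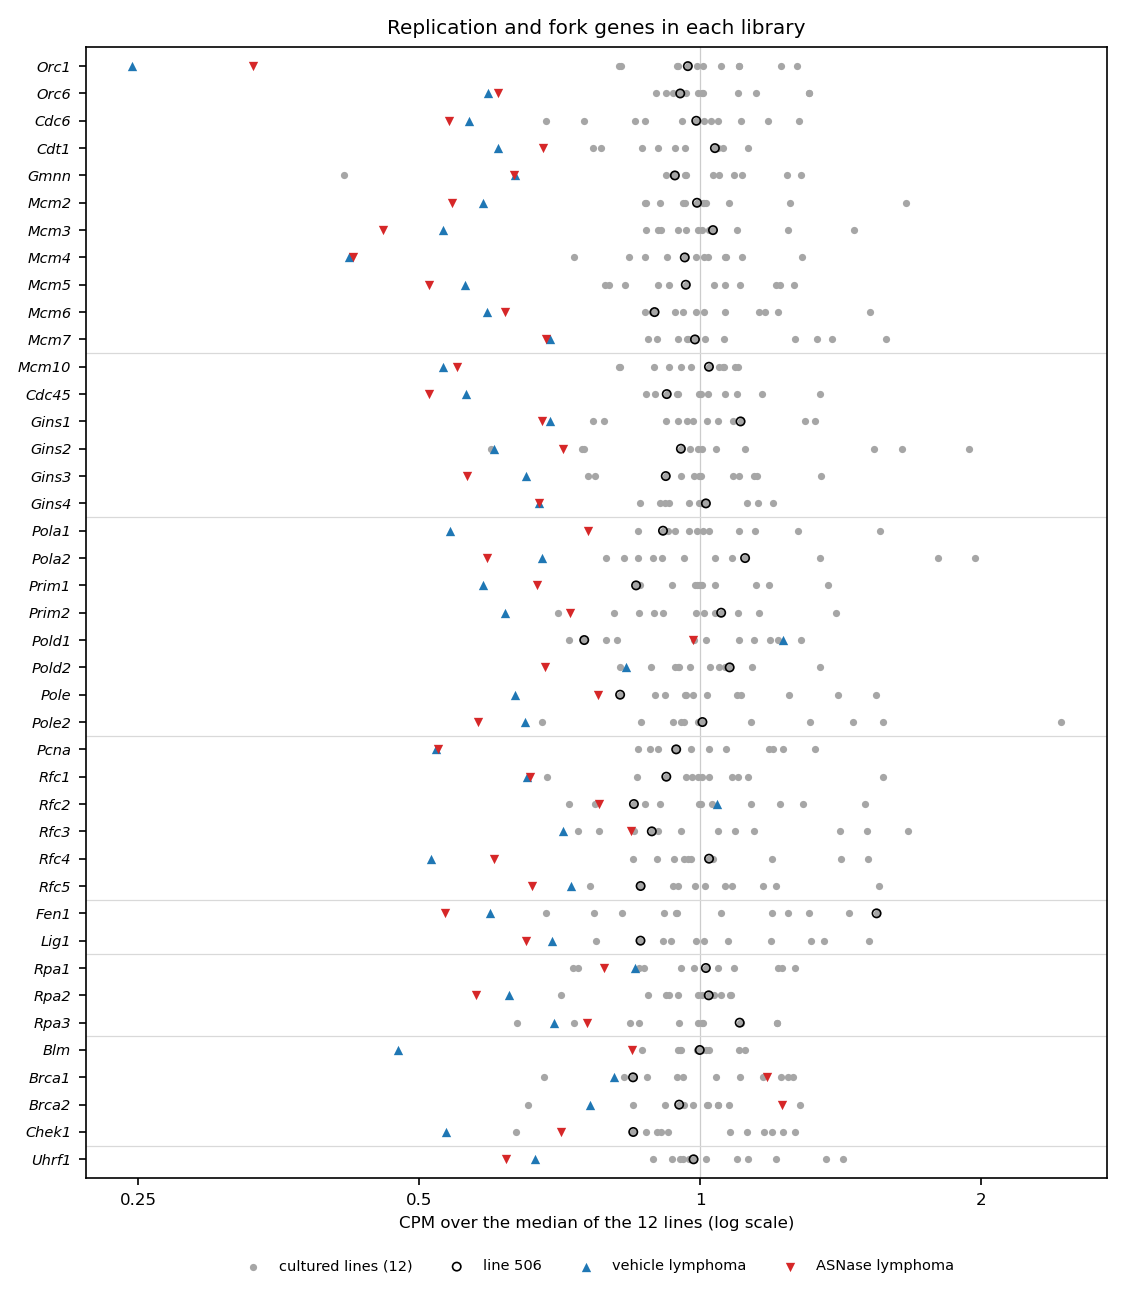
CPM of each gene (rows, ordered by role) divided by the median of the 12 lines (x axis, log scale) in every cultured line (grey, with line 506 circled), the vehicle lymphoma (blue triangle) and the ASNase lymphoma (red triangle). In 29 of 41 rows both triangles lie left of all grey points, and Orc1 (10.8 and 14.6 CPM) lies farthest left.

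Of the 11 origin-licensing genes 10 were called lower. The largest change of any member was in Orc1 (chromosome 4, 108579423 to 108614833), at 36.0 to 55.8 CPM in the lines (median 43.9), 10.8 CPM in the vehicle and 14.6 CPM in the ASNase lymphoma. Both lymphomas lay below every line, and the log2 fold change was -1.84 (SE 0.19, edgeR adjusted p = 2.70e-05). These values rest on 336 counts in the vehicle and 436 in the ASNase lymphoma, and 10.8% of the exonic bases of Orc1 are shared with a gene on the opposite strand. Orc6, the smallest ORC subunit, fell from 71.3 to 104 CPM to 47.1 and 48.2 CPM (log2 fold change -0.80, SE 0.16, adjusted p = 0.00362 in edgeR). Cdc6, the loading ATPase, ran from 61.3 to 114 CPM in the lines and stood at 50.6 and 48.2 CPM (log2 fold change -0.83, adjusted p = 0.0121), and Cdt1 at 103 and 115 CPM below its lowest line at 130 CPM (log2 fold change -0.59, adjusted p = 0.0122).

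Within the helicase ring all 6 subunits fell, and in all 6 both lymphomas lay below every line. Mcm4 (chromosome 16, 15623897 to 15637400) changed most among them, from 259 to 454 CPM in the lines (median 353) to 148 and 150 CPM (log2 fold change -1.23, SE 0.18, adjusted p = 0.000388 in edgeR). Mcm3 ran from 401 to 670 CPM (median 458) and stood at 243 and 210 CPM (log2 fold change -1.07, SE 0.18, adjusted p = 0.00122). Mcm5 ran from 303 to 484 CPM (median 383) and stood at 215 and 196 CPM (log2 fold change -0.91, SE 0.19, adjusted p = 0.00489).

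Mcm2, at 363 to 690 CPM in the lines (median 416), stood at 244 and 226 CPM (log2 fold change -0.89, SE 0.22, adjusted p = 0.0102 in edgeR). Mcm6, at 446 to 779 CPM (median 511), stood at 302 and 316 CPM (log2 fold change -0.81, SE 0.20, adjusted p = 0.0103). The smallest change was that of Mcm7, at 341 to 614 CPM (median 388) and then 268 and 265 CPM (log2 fold change -0.69, SE 0.22, adjusted p = 0.0391), with 12.6% of its exonic bases shared with other genes. Only Mcm3 and Mcm4 of the 6 kept their call with either lymphoma alone. Mcm5 lost it with the vehicle lymphoma alone, and Mcm2, Mcm6 and Mcm7 with either alone.

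Gmnn was the licensing gene that was not called, at 50.2 CPM in both lymphomas against a line median of 79.3 CPM (log2 fold change -0.65, SE 0.29, adjusted p = 0.117 in edgeR). The lymphomas lay below 11 lines and above line 801. Without line 801, and with scaling on B cell genes, Gmnn was called lower.

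Among the 6 genes of helicase activation 4 were called lower, and all 6 had a log2 fold change below 0. Mcm10, at 107 to 144 CPM in the lines, stood at 69.6 and 72.1 CPM (log2 fold change -0.86, SE 0.13, adjusted p = 0.000668 in edgeR). Cdc45, the helicase cofactor, ran from 77.9 to 120 CPM in the lines (median 88.9) and stood at 49.9 and 45.5 CPM (log2 fold change -0.93, SE 0.16, adjusted p = 0.00112). Both genes had every line above both lymphomas.

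The GINS subunits Gins3 and Gins4 were called (log2 fold changes -0.75 and -0.58), and Gins1 and Gins2 were not. Gins1 stood at 28.4 and 27.8 CPM, below its lowest line at 31.6 CPM (log2 fold change -0.58, edgeR adjusted p = 0.0511). Gins2 stood at 19.6 and 23.3 CPM against 19.5 to 63.2 CPM in the lines (log2 fold change -0.76, SE 0.39, adjusted p = 0.177). The spread of Gins2 among the lines was the largest of any member, and its lymphoma values overlapped the lowest line.

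Polymerase genes passed the test in 2 of 8 cases. Pola1, the catalytic subunit of polymerase alpha, ran from 95.3 to 173 CPM in the lines (median 111) and stood at 59.9 CPM in the vehicle and 84.2 CPM in the ASNase lymphoma (log2 fold change -0.73, SE 0.20, adjusted p = 0.0187 in edgeR). Prim1, the catalytic primase subunit, stood at 56.7 and 64.7 CPM against 82.7 to 133 CPM (log2 fold change -0.72, SE 0.16, adjusted p = 0.00696). The other primase subunit, Prim2, stood at 41.5 and 48.7 CPM against 47.3 to 93.8 CPM (log2 fold change -0.57, adjusted p = 0.0602). Both primase subunits had their lower value in the vehicle lymphoma.

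Of the remaining subunits of polymerase alpha and epsilon, Pola2 stood at 97.8 and 85.4 CPM against 115 to 285 CPM in the lines (log2 fold change -0.84, SE 0.34, adjusted p = 0.0913 in edgeR). Pole, the catalytic subunit of polymerase epsilon, stood at 116 and 142 CPM against 150 to 282 CPM (log2 fold change -0.62, adjusted p = 0.0522). Pole2 stood at 15.9 and 14.1 CPM against 16.6 to 59.6 CPM (log2 fold change -0.96, SE 0.40, adjusted p = 0.0983). These 3 genes lay below every line in both lymphomas without passing the test, and Pola2 and Pole2 were among the members with the widest spread among the lines.

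Neither polymerase delta subunit among the members passed the test. Pold1, the catalytic subunit, ran from 121 to 215 CPM in the lines (median 168) and stood at 206 CPM in the vehicle and 165 CPM in the ASNase lymphoma, inside that range. Its log2 fold change of 0.16 was the only one above 0 (SE 0.22, edgeR adjusted p = 0.642), and with scaling on B cell genes it was -0.29. Pold2, the accessory subunit, stood at 111 and 91.3 CPM against 110 to 180 CPM (log2 fold change -0.43, SE 0.15, adjusted p = 0.0546). The small subunits Pold3 and Pold4, which are in the list of other replication genes, were not called either (log2 fold changes -0.08 and 1.19, adjusted p = 0.788 and 0.105 in edgeR).

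**Figure D4:**
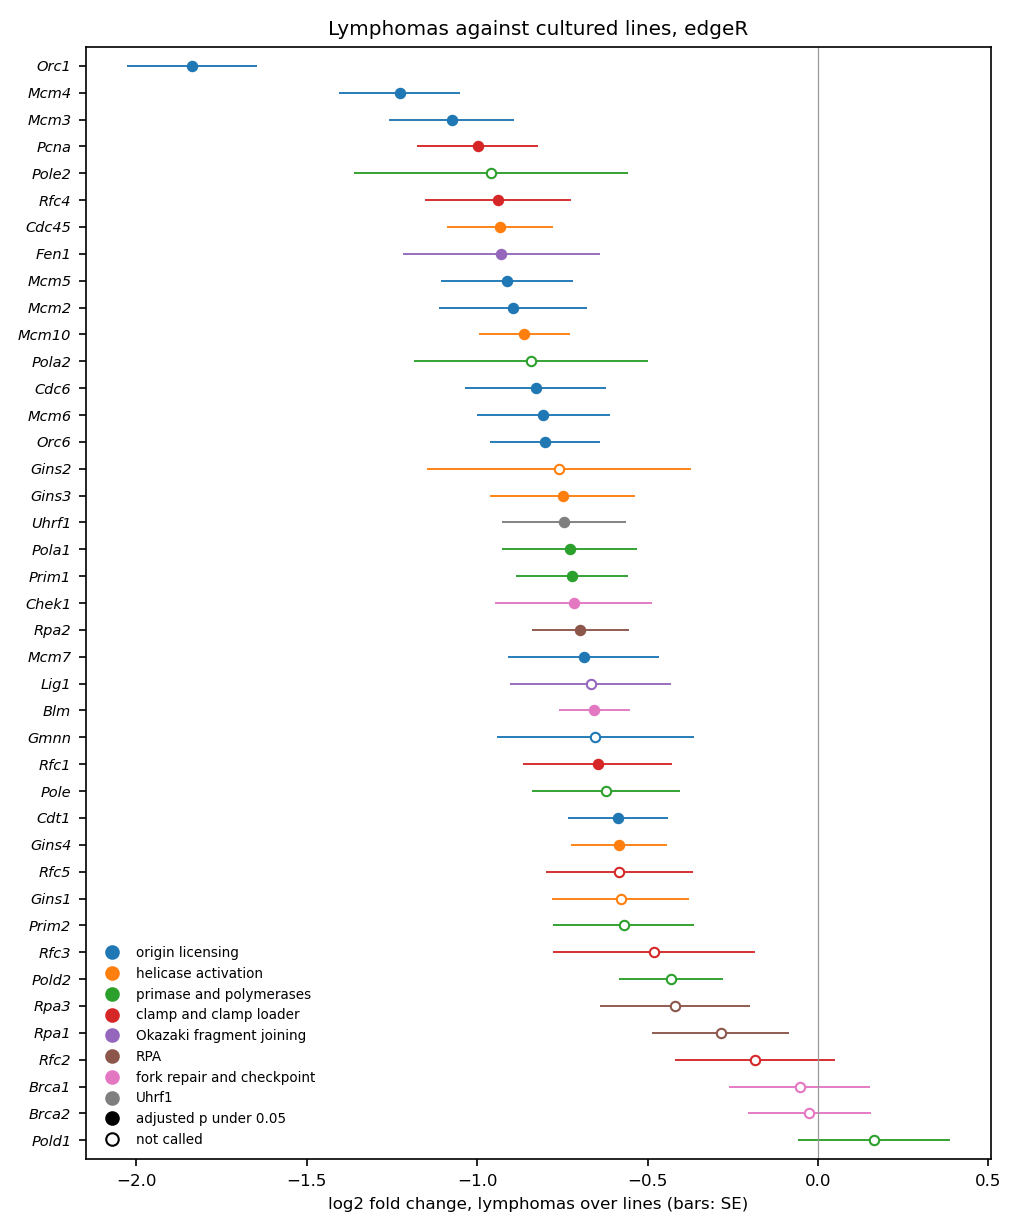
Log2 fold change of the mean of both lymphomas over the 12 cultured lines (x axis, bars are SE from the edgeR fit) for each gene (rows, ordered by fold change, coloured by role), with filled points for an adjusted p under 0.05. Orc1 is lowest at -1.84, and Pold1 is the only gene above 0, at 0.16.

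Pcna (chromosome 2, 132249162 to 132253314), the sliding clamp, ran from 400 to 618 CPM in the lines (median 466) and stood at 243 and 244 CPM. Every line lay above both lymphomas, and the log2 fold change was -1.0 (SE 0.18, edgeR adjusted p = 0.00161). The table also holds 2 named copies of Pcna, between which reads could have been divided. Of the clamp loader, Rfc4 fell from 63.4 to 113 CPM to 38.5 and 44.9 CPM (log2 fold change -0.94, SE 0.21, adjusted p = 0.00723), and Rfc1, the large subunit, from 135 to 309 CPM to 128 and 130 CPM (log2 fold change -0.65, adjusted p = 0.0474). The call of Rfc1 was lost in 14 of 20 alternatives, and 12.6% of the exonic bases of Rfc4 are shared with Eif4a2 on the opposite strand.

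Rfc2, Rfc3 and Rfc5, 3 further loader subunits, were not called. Rfc2 stood at 113 CPM in the vehicle and 84.6 CPM in the ASNase lymphoma, inside the 78.5 to 163 CPM of the lines (log2 fold change -0.18, SE 0.23, adjusted p = 0.620 in edgeR), and 15.1% of its exonic bases lie opposite Lat2. Rfc3 stood at 31.0 and 36.7 CPM against 32.2 to 72.6 CPM (log2 fold change -0.48, SE 0.30, adjusted p = 0.267). Rfc5 stood at 81.5 and 74.0 CPM, below its lowest line at 85.5 CPM (log2 fold change -0.58, SE 0.22, adjusted p = 0.0640).

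Of the Okazaki fragment genes, Fen1 was called and the ligase Lig1 was not. Fen1 stood at 105 and 93.5 CPM against 120 to 271 CPM in the lines (median 176, log2 fold change -0.93, SE 0.29, edgeR adjusted p = 0.0329), but 84.2% of its exonic bases lie opposite other genes, so its level is uncertain. Lig1 stood at 157 and 147 CPM against 175 to 343 CPM (log2 fold change -0.67, SE 0.24, adjusted p = 0.0557). In both genes the lymphomas lay below every line.

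Replication protein A coats single-stranded DNA as a trimer. Its middle subunit Rpa2 fell from 98.9 to 150 CPM in the lines to 86.9 and 80.1 CPM (log2 fold change -0.70, SE 0.14, adjusted p = 0.00371 in edgeR). The large subunit Rpa1 stood at 231 and 215 CPM against 199 to 344 CPM (log2 fold change -0.29, SE 0.20, adjusted p = 0.334), and the small subunit Rpa3 at 33.4 and 36.2 CPM against 30.4 to 57.9 CPM (log2 fold change -0.42, SE 0.22, adjusted p = 0.190). Both of these overlapped the lines, unlike Rpa2.

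Among the 4 fork repair and checkpoint genes 2 were called lower, and the vehicle lymphoma had the lower level in all 4. Blm fell, with 42.3 CPM in the vehicle and 75.4 CPM in the ASNase lymphoma against 77.4 to 99.6 CPM in the lines (log2 fold change -0.66, SE 0.10, adjusted p = 0.000771 in edgeR). Without the vehicle lymphoma Blm was not called (adjusted p = 0.311 in edgeR). Chek1, the kinase that slows replication when forks stall, stood at 27.1 and 35.9 CPM against 32.2 to 64.1 CPM (log2 fold change -0.72, SE 0.23, adjusted p = 0.0381) and was called with neither lymphoma alone.

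Brca1 and Brca2, which protect stalled forks and act in homologous recombination, were not called. Brca1 stood at 61.5 CPM in the vehicle and 89.5 CPM in the ASNase lymphoma against 51.7 to 95.4 CPM in the lines (log2 fold change -0.05, SE 0.21, adjusted p = 0.884 in edgeR). Brca2 stood at 36.1 and 58.0 CPM against 30.9 to 60.6 CPM (log2 fold change -0.03, SE 0.18, adjusted p = 0.942). Both lay inside the range of the lines, and the sign of these small changes depended on the scaling: it was above 0 for both with total counts, at 0.17 and 0.20. Uhrf1 fell, from 333 to 532 CPM (median 374) to 249 and 232 CPM (log2 fold change -0.74, SE 0.18, adjusted p = 0.0105), with both lymphomas below every line.

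The 41 genes do not exhaust replication and repair, and 4 further lists put them beside related genes. Of 36 other replication genes 9 (25%) were called lower and 0 higher. Tipin, of the fork protection complex, fell from 155 to 254 CPM to 74.2 and 83.3 CPM (log2 fold change -1.16, edgeR adjusted p = 0.000518), and Dbf4, the activator of the Cdc7 kinase, from 116 to 160 CPM to 70.5 and 86.6 CPM (log2 fold change -0.76, adjusted p = 0.00131). Of 31 other fork repair genes 7 (22.6%) were called lower and 1, Fanca, a subunit of the Fanconi anaemia core complex, was called higher (log2 fold change 0.49, adjusted p = 0.0256). Usp1, which removes ubiquitin from Pcna and Fancd2, stood at 147 and 225 CPM against 266 to 361 CPM (log2 fold change -0.74, adjusted p = 0.000922), and Rad18, the ligase that ubiquitinates Pcna, at 26.1 and 38.2 CPM against 52.7 to 104 CPM (log2 fold change -1.05, adjusted p = 0.00499).

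Of 16 genes of E2F and S phase control 6 (37.5%) were called lower and 0 higher. Cdc25a, the phosphatase that activates Cdk2, fell from 120 to 165 CPM to 69.5 and 63.7 CPM (log2 fold change -1.13, edgeR adjusted p = 4.6e-05), and Ccne2, a cyclin E, from 42.4 to 64.4 CPM to 21.7 and 31.7 CPM (log2 fold change -1.01, adjusted p = 0.0014). Of 18 mitosis genes 11 (61.1%) were called lower and 0 higher, close to the 58.5% of the members. The log2 fold change was below 0 in 16 of the 18. The exceptions were Cenpf (log2 fold change 0.30) and Mki67, at 1076 and 1489 CPM against 657 to 1365 CPM (log2 fold change 0.58, adjusted p = 0.0676 in edgeR). The spindle checkpoint kinase gene Bub1 fell from 88.2 to 163 CPM to 52.1 and 52.5 CPM (log2 fold change -1.22, adjusted p = 0.000504), and Kif20a, a kinesin of cytokinesis, from 180 to 272 CPM to 120 and 89.9 CPM (log2 fold change -1.08, adjusted p = 0.000509). The share of lower calls was thus not larger among the members than among the mitosis genes, and no test of that difference was made. Both lymphomas lay below every line in 70.7% of the members and 72.2% of the mitosis genes. The share was 37.5% for E2F and S phase control, 32.3% for other fork repair and 22.2% for other replication genes.

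Transcripts of host cells were higher in both lymphomas. The summed level of 10 fibroblast markers was 0 to 2.04 CPM in the lines, 960 CPM in the vehicle and 2385 CPM in the ASNase lymphoma, with 10 of 10 called higher. That of 10 macrophage markers was 2.97 to 63.4 CPM, then 223 and 490 CPM (9 of 10 called higher). Endothelial markers (6) summed to 27.2 to 167 CPM, then 252 and 174 CPM (4 called higher), and erythroid markers (7, of which 6 were tested) to 0.285 to 83.9 CPM, then 221 and 162 CPM (3 called higher, 1 lower). T cell markers (8) summed to 0.0339 to 2.4 CPM, then 45.4 and 8.35 CPM (6 called higher), and neutrophil markers (6) to 0 to 0.167 CPM, then 21.4 and 12.2 CPM (6 called higher). At 0 in all lines were 3 fibroblast, 2 macrophage, 1 endothelial, 2 T cell, 3 neutrophil and 2 erythroid markers. Those of them that were tested, and others near 0 in the lines, passed the filter through the lymphomas alone. Their spread among the lines is absent or rests on a few counts. Calls of such markers are therefore not read as tests, and their levels in CPM are a description. B cell genes were not lower as a set. Their 16 members summed to 3903 to 5251 CPM in the lines, 6130 CPM in the vehicle and 5104 CPM in the ASNase lymphoma. Of the 16, 0 were called and 5 had a log2 fold change below 0, with a median of 0.30. Some stood far above line 506, such as Blk (0.272 CPM in line 506, 51.0 and 18.0 CPM in the lymphomas) and Bcl11a (0.645, then 60.4 and 38.2 CPM). This list does not tell B cells of the host from those of line 506. The part of host cells in the lower replication transcripts was not tested.

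Setting each lymphoma against line 506 itself leaves out the differences between lines. With 1 library a side there is no test, and intervals are exact 95% binomial intervals of the CPM ratio that cover counting error only. In the vehicle lymphoma 39 of 41 members had a ratio below 1, against 55.4% of all genes at 5 CPM or more in either library, with a median ratio of 0.630. In the ASNase lymphoma 38 of 41 did, against 56.5%, with a median ratio of 0.662. These values depended on the scaling. By total counts the median ratio was 0.768 in the vehicle and 0.839 in the ASNase lymphoma, with 36 and 32 members below 1. On B cell genes it was 0.447 and 0.509, with 40 and 39 below 1. Both comparisons share the library of line 506. Past a log2 ratio of -1 lay 4 members in each, against 12.2% and 12.0% of all genes.

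Orc1 was lowest in both, with a ratio to line 506 of 0.254 (0.224 to 0.287) in the vehicle and 0.342 (0.306 to 0.381) in the ASNase lymphoma. Fen1 followed, at 0.385 (0.370 to 0.402) and 0.344 (0.330 to 0.360), from 271 CPM in line 506, its highest line. Mcm4 came next, at 0.436 (0.421 to 0.452) and 0.441 (0.426 to 0.457). The fourth was Blm in the vehicle lymphoma, at 0.474 (0.444 to 0.507), and Mcm3 in the ASNase lymphoma, at 0.443 (0.430 to 0.456). Blm in the ASNase lymphoma was at 0.845 (0.799 to 0.894) of line 506.

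Above line 506 stood Rfc2 at 1.23 (1.17 to 1.29) and Pold1 at 1.63 (1.57 to 1.70) in the vehicle lymphoma, and Brca2 at 1.29 (1.20 to 1.39), Pold1 at 1.31 (1.25 to 1.37) and Brca1 at 1.39 (1.31 to 1.48) in the ASNase lymphoma. Pold1 was thus the only member above line 506 in both, where it had stood at 126 CPM, near the bottom of the lines. By role, licensing had a median log2 ratio of -0.77 in the vehicle and -0.87 in the ASNase lymphoma. The fork repair genes had -0.49 and 0.06.

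Between the lymphomas, the summed level of the replication genes was 4225 CPM with ASNase and 4266 CPM with vehicle, and the median ratio of ASNase over vehicle was 0.999. None of the 41 members passed a log2 ratio of 1 in size, against 1.99% of genes that did so downward and 2.70% upward. With a ratio above 1 were 20 members, and 21 had a ratio below 1. Of all genes 44.7% had a ratio above 1. This split depended on the scaling, with 17 members below 1 by total counts (median ratio 1.04) and 12 on B cell genes (median ratio 1.08). Pcna was at 1.00 (0.972 to 1.04), and the helicase subunits lay between 0.862 and 1.04.

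The 3 highest ratios were those of fork repair genes. Blm stood at 75.4 against 42.3 CPM, a ratio of 1.78 (1.66 to 1.91). Brca2 stood at 58.0 against 36.1 CPM (1.61, 1.49 to 1.73), and Brca1 at 89.5 against 61.5 CPM (1.46, 1.37 to 1.55). In Blm the ASNase lymphoma was near the lowest line and the vehicle lymphoma far below it, while both values of Brca1 and Brca2 lay inside the range of the lines. Pola1 followed at 1.41 (1.32 to 1.49) and Orc1 at 1.35 (1.16 to 1.56). With Chek1 at 1.33 (1.21 to 1.45), all 4 fork repair members had a ratio above 1, and their median log2 ratio was 0.61. Among the 31 other fork repair genes, 18 of the 29 at 5 CPM or more had a ratio above 1, with a median log2 ratio of 0.07.

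At the other end stood Rfc2, at 84.6 against 113 CPM, a ratio of 0.748 (0.711 to 0.788). Pold1 was at 0.801 (0.772 to 0.831) and Pold2 at 0.820 (0.779 to 0.862). Of the other polymerase delta subunits, Pold3 was at 70.9 against 72.5 CPM and Pold4 at 37.7 against 59.8 CPM. Mcm3 was at 0.862 (0.834 to 0.892) and the GINS subunit Gins3 at 0.865 (0.755 to 0.990). Against the spread of the lines, edgeR called 0 of 41 members and 0 of 17450 genes between the lymphomas, with 1 member and 234 genes at an unadjusted p under 0.05.

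The ratio was also set beside gene length. All 5 members over 8000 exonic bases (Blm, Brca1, Brca2, Pola1 and Pole) were higher in the ASNase lymphoma, with a median ratio of 1.46, against 15 of 36 shorter members with a median of 0.985. The length of 8000 bases was chosen after the values were seen, and no trend with length within the members was computed. Blm, Brca1 and Brca2 are also fork repair genes, so length and role cannot be told apart in them. With the trend over gene length in all genes taken off, the log2 ratio went from 0.83 to 0.68 in Blm, from 0.68 to 0.42 in Brca2, from 0.54 to 0.40 in Brca1 and from 0.41 to 0.43 in Chek1. The median log2 ratio of the members was then 0.08. Host markers differed as well, with summed fibroblast and macrophage levels of 2385 and 490 CPM in the ASNase and 960 and 223 CPM in the vehicle lymphoma, and B cell genes at 5104 and 6130 CPM. The parts of gene length, RNA quality and host cells in these ratios were not tested.

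**Figure D5:**
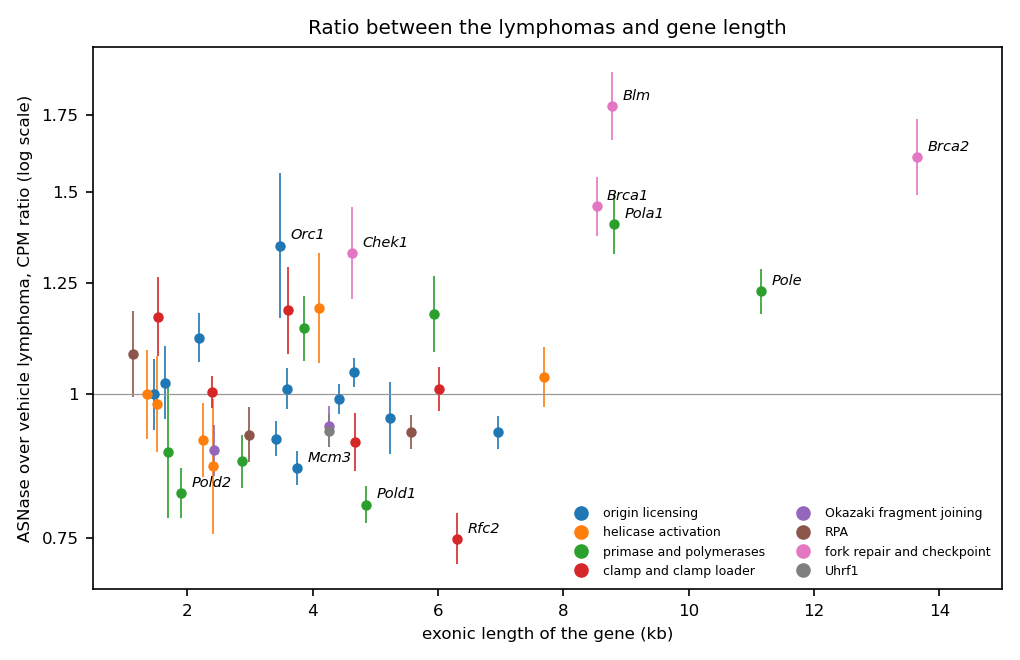
Ratio of CPM in the ASNase over the vehicle lymphoma (y axis, log scale, bars are exact 95% binomial intervals) against exonic length in kb (x axis) for each gene, coloured by role. Blm (1.78), Brca2 (1.61), Brca1 (1.46), Pola1 (1.41) and Pole (1.23) are the members over 8 kb, and all lie above 1.

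From the related lists, the gene with the largest ratio between the lymphomas in either direction was Atad5, which unloads Pcna, among other replication genes, at 79.7 CPM with ASNase against 42.3 CPM with vehicle. Among other fork repair genes it was Rmi2, a partner of Blm in the dissolvasome complex, at 17.8 against 34.3 CPM. Among E2F and S phase genes it was the retinoblastoma gene Rb1, at 69.7 against 39.1 CPM, and among mitosis genes the kinase gene Plk1, at 49.0 against 93.3 CPM. Atad5 and Rb1 were higher with ASNase, and Rmi2 and Plk1 lower.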

How the data were processed

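RNA of 12 cultured lines and 2 lymphomas was sequenced in paired ends from stranded mRNA libraries, per the labels' protocols. The deposited values are raw counts per gene on mm10 (GRCm38), for which the submitters' processing notes name STAR 2.4.0, Subread 1.5.0-p3 and its featureCounts. Whether counting used strand, and how it treated multiply aligned reads, is not given in the sources used here, so overlapping genes and near-identical copies are uncertain (12 members share exonic bases with another gene, 9 of them over 5%). All sample columns matched a sample by name, and 0 were left over. The 100 spike-in and phage entries were left out of totals and tests.

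Counts were analysed with edgeR 4.0.16 in R 4.3.3. Genes were kept by filterByExpr, scaled by TMM and tested by the quasi-likelihood test in 3 groups (11 residual degrees of freedom, all from the lines), with Benjamini-Hochberg adjustment over all genes and a threshold of 0.05. SE is the log2 fold change over the square root of F, and log2 CPM used a prior count of 2. A further fit set each line against the others. The p-values measure the spread between lines, which come from separate mice. Pairs of single libraries were compared by CPM ratio, with a size threshold of 1 in log2 at 5 CPM or more. A count of 0 allows up to 3 counts, or 0.0897 to 0.124 CPM per library, and no member was near it. Reads carry no molecular identifiers. Alternatives were DESeq2 1.42.0, other scalings, no filter, other thresholds, a length trend (loess, span 0.5) and leaving out each library. The fits were tested on simulated counts. Figures used matplotlib 3.10.9 in Python 3.11.15, and promoters are from RefSeq.

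The 41 members and the 11 other gene lists (164 genes) were chosen with earlier results of these data known, and no count of theirs is independent support. Genes are named with values by rule: Mcm2 to Mcm7, Pcna, the 5 lowest and 5 highest fold changes, every member not called, the 5 highest and 5 lowest ratios between lymphomas, the 5 largest and 3 smallest SDs among lines, and from each related list 2 genes by smallest p and 1 by the ratio between lymphomas. Other members and list genes named were chosen after their values were seen.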

Additional observations from a re-analysis of the deposited data

How the results depend on the processing

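Over 20 alternatives and 41 members, 721 of 820 values kept their direction and side of the threshold, 56 lost the call, 32 gained it and 11 changed sign, all 11 in members that were not called. Of all genes, 4269 were called, between 3885 and 4953 under other tools, scalings and filters, and 3785 to 4881 without any 1 line. Without the vehicle lymphoma 2012 genes were called and without the ASNase lymphoma 1816. Members called numbered 24, and 27 with DESeq2, 22 with median-ratio size factors, 12 with total counts, 34 scaled on B cell genes, 23 with no filter and 27 with both lymphomas as 1 group, all of them lower. Without 1 line there were 22 to 28, without the vehicle lymphoma 9 and without the ASNase lymphoma 11. Fewer samples enter those last fits, and for the other changes the cause was not tested. The sign of Brca2 (-0.0250) turned to 0.0268 with DESeq2, 0.0267 with median-ratio size factors, 0.198 with total counts, 0.320 without the vehicle lymphoma (-0.370 without the ASNase lymphoma), 0.0155 without line 504 and 0.0255 with both lymphomas as 1 group. That of Brca1 (-0.0539) turned to 0.167 with total counts and 0.220 without the vehicle lymphoma (-0.327 without the ASNase lymphoma), that of Rfc2 (-0.184) to 0.0370 with total counts and 0.0230 without the ASNase lymphoma (-0.391 without the vehicle lymphoma), and that of Pold1 (0.165) to -0.291 on B cell genes. Each line against the others gave 0 members in edgeR under each scaling and filter tried and 2 in DESeq2. The median SD of log2 CPM among lines was 0.25, with 0.22 to 0.27 without any 1 line. Against the spread of the lines, or with other scalings or the length trend off, 0 members differed between the lymphomas by the rule used, and 2 (Blm and Brca2) passed a log2 ratio of 0.58. Against line 506, 4 members passed the size threshold in each lymphoma. For the vehicle lymphoma this became 2 with total counts, 29 on B cell genes, 26 at 0.58 and 3 with the length trend off, and for the ASNase lymphoma 2, 19, 21 and 4. No paired analysis was made, because line 506, which the labels name as the origin of both lymphomas, has 1 library that both pairs would share. The lowest count of any member in any library was 336, and each treatment has 1 library.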
